A study of Homo sapiens with 9 samples.

Results

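RRM1, RRM2, TYMS, TK1, DCK, DUT, DCTPP1, PRPS1 and PRPS2 are 9 genes of nucleotide supply, and they were examined among the 60966 genes of an RNA-seq series on H1299 cells. They were chosen by their place in the pathway and by measured values, since RRM2, TYMS and PRPS1 were known to be among the largest shared falls after depletion of FIBP. Their differences from the Scramble group are therefore given as a description, with no p-value, and counts of them by the call rule below support nothing. H1299 is a cell line established from a human non-small cell lung carcinoma. The cells were transfected with a scrambled siRNA (Scramble) or with 1 of 2 siRNAs against FIBP, the gene of the FGF1 intracellular binding protein, termed Si-FIBP#1 and Si-FIBP#2. Each group held 3 samples of poly(A)-selected RNA, and both FIBP-depleted groups were compared with the same 3 Scramble samples. The study's methods describe experiments in general as independent repeats, but the sources used here do not say whether the 3 sequenced samples of a group came from separate cultures, so their spread may be technical.

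DNA synthesis needs a balanced supply of the deoxynucleotides dATP, dGTP, dCTP and dTTP. Ribonucleotide reductase, built from RRM1 and RRM2, makes deoxynucleotides from ribonucleotides, and thymidylate synthase (TYMS) then methylates dUMP to dTMP. TK1 and DCK recover deoxynucleosides by phosphorylation, while DUT and DCTPP1 hydrolyse dUTP and modified dCTP so that they stay out of DNA. PRPS1 and PRPS2 make phosphoribosyl pyrophosphate (PRPP), the activated ribose from which purine and pyrimidine nucleotides are built. RRM2, TYMS and TK1 are classical S phase genes whose mRNA is abundant in cells that replicate DNA.

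All 9 genes were lower in FIBP-depleted cells than in Scramble cells with both siRNAs. TYMS, RRM2 and PRPS1 fell to between 21.4% and 34.4% of their Scramble means, TK1 and PRPS2 to between 27.2% and 34.7%, and RRM1 to 43.0% and 52.8%. DUT, DCK and DCTPP1 kept between 55.1% and 69.8%. Values are FPKM (sequenced fragments scaled to transcript length and library size), summed over the transcripts of a gene, and errors are SD with n = 3.

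FIBP itself, on the minus strand of chromosome 11 (chr11:65883741-65888539, GRCh38), was at 81.9 ± 5.71 FPKM in Scramble cells. It was at 6.52 ± 1.93 FPKM after Si-FIBP#1 and 7.09 ± 1.15 FPKM after Si-FIBP#2, which is 7.96% and 8.66% of Scramble, and the 2 siRNA groups overlapped. Of the 60966 genes, 14985 reached 1 FPKM in at least 3 samples and were tested with limma on log2(FPKM + 1). A gene was called when it changed more than 2-fold at a false discovery rate (FDR) below 0.05. With Si-FIBP#1, 382 genes were called higher and 466 lower, and after Si-FIBP#2, 438 were higher and 319 lower. After scaling each sample by its median ratio, these became 296 and 564, and 291 and 481, and the median log2 difference of all genes moved from 0.073 to -0.016 and from 0.11 to -0.018. The depth, estimated from the step that 1 fragment makes in low FPKM values, was 20200000 to 24100000 fragments per sample. KRT8, KRT18 and vimentin marked the line, at 67.15 to 108 FPKM, 143 to 483 FPKM and 1592 to 3369 FPKM, and KRT18 was called lower with both siRNAs. The lung lineage factor NKX2-1 and EPCAM were at or below 0.28 FPKM in every sample, as were the leukocyte, endothelial and macrophage genes PTPRC, PECAM1 and LYZ. Of the fibroblast genes, COL3A1 reached 0.13 FPKM, and COL1A1 was at 0.03 to 0.14 FPKM in Scramble cells and 0.35 to 1.59 FPKM in FIBP-depleted cells. The smooth muscle gene ACTA2 reached 6.64 FPKM.

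The promoter windows of these genes were searched for motifs of known cell cycle factors, and the short stretches below show CCAAT or E2F copies of the genes with the largest falls and of the downstream DUT start. RefSeq windows of GRCh38.p14, from 250 bases before to 50 bases after each annotated start, were found for 9 of 9 genes. They were searched on both strands for E2F motifs (TTTCCCGC, TTTCGCGC, TTTGCCGC or TTTGGCGC) and for the CCAAT box (CCAAT), which binds the factor NF-Y. In the lines below, the capitals mark these motifs on either strand, and each stretch reads 5′ to 3′ on the strand of its gene.
RRM2 (chr2:10122611-10122627, plus strand): cgcagCCAATgggaagg
RRM2 (chr2:10122641-10122657, plus strand): cacagCCAATgggaagg
RRM2 (chr2:10122668-10122684, plus strand): caaagCCAATgggaagg
TK1 (chr17:78187118-78187134, minus strand): cgctgATTGGccccatg
TK1 (chr17:78187087-78187103, minus strand): tcgtgATTGGccagcac
PRPS1 (chrX:107628340-107628369, plus strand): ttcatgctcttcacCCAATacctgagagaa
TYMS (chr18:657601-657630, plus strand): gcgcgggacggccGCGGGAAAaggcgcgcg
DUT, downstream start (chr15:48332152-48332181, plus strand): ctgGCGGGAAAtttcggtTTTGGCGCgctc
PRPS2 (chrX:12791382-12791411, plus strand): tacatctagccgccgcgcTTTCCCGCtccc

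The 3 RRM2 stretches share the run agCCAATgggaagg, and the 2 TK1 stretches carry the box in the opposite direction. The 9 genes have 14 windows, so a gene with several starts had more letters searched than a gene with 1. An E2F motif was found in 4 of the 14 windows, of TYMS, DUT, PRPS2 and DCK, and in 3.31% of all 35116 promoter windows. A CCAAT box was found in 5 of the 14 windows, of RRM1, RRM2, TK1 and PRPS1, a share close to the 34.6% of all windows. No gene held both. A GC box (GGGCGG) was found in 11 of the 14 windows and in 45.0% of all windows. A cell cycle homology region (TTTGAA or TTCGAA) was found in 2 of the 14, of RRM1 and DUT, and in 16.4% of all, and a STAT motif (TTCNNNGAA) in 2 of the 14, of DUT and DCTPP1, and in 7.66% of all. The copies in RRM1 and DCK and a further RRM2 copy are not printed. These matches describe letters in the windows and say nothing of binding. Except for the PRPS1 stretch, the printed letters lie wholly or partly within first exons of transcripts in GENCODE release 29.

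The small subunit of ribonucleotide reductase, RRM2, carries the radical that the reaction needs. The Scramble samples held 136, 131 and 131 FPKM, against 27.9, 32.3 and 28.8 FPKM after Si-FIBP#1 and 44.0, 29.8 and 36.8 FPKM after Si-FIBP#2. The Scramble samples lay far above all 6 FIBP-depleted samples, and the 2 siRNA groups overlapped. The difference was -2.12 ± 0.12 (log2, SE) after Si-FIBP#1 and -1.83 ± 0.12 after Si-FIBP#2, the 7th largest mean fall of all genes tested.

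RRM1, the large subunit that binds the substrates and the regulators of the enzyme, was at 45.2, 45.25 and 46.5 FPKM in Scramble cells. It was at 19.96, 19.2 and 19.7 FPKM after Si-FIBP#1 and at 25.85, 22.8 and 23.6 FPKM after Si-FIBP#2, so the 3 groups did not overlap. The difference was -1.18 ± 0.06 after Si-FIBP#1, just past the 2-fold threshold, and -0.90 ± 0.06 after Si-FIBP#2, just short of it. The mRNAs of the 2 subunits thus fell unequally. Their ratio, RRM2 to RRM1 in gene sums, went from 2.90 ± 0.10 in Scramble cells to 1.51 ± 0.15 after Si-FIBP#1 and 1.52 ± 0.20 after Si-FIBP#2. The highest ratio in a FIBP-depleted sample was 1.70 and the lowest in a Scramble sample was 2.81.

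RRM2B, a second small subunit that works outside S phase, went the other way. It was at 18.2, 20.8 and 18.6 FPKM in Scramble cells, 24.0, 25.5 and 28.1 FPKM after Si-FIBP#1 and 24.55, 29.9 and 23.8 FPKM after Si-FIBP#2. All 6 FIBP-depleted samples lay above the Scramble samples, as for 3944 of all 14985 tested genes. The rise was 0.41 ± 0.10 (adjusted p = 0.00666) and 0.42 ± 0.10 (adjusted p = 0.00595), within the 2-fold threshold. After median ratio scaling it was 0.31 (adjusted p = 0.023) and 0.27 (adjusted p = 0.0395). The ratio of RRM2 to RRM2B went from 6.92 ± 0.58 to 1.15 ± 0.12 and 1.44 ± 0.41. TXNRD1, the thioredoxin reductase that returns electrons to ribonucleotide reductase, was called lower with both siRNAs, at -1.01 ± 0.08 (adjusted p = 9.99e-06) and -1.08 ± 0.08 (adjusted p = 7.95e-06). It lay close to the 2-fold threshold, and without Si-FIBP#2 replicate 2 its difference with that siRNA was -0.99 and no longer called. Without Si-FIBP#1 replicate 2 or replicate 3, the difference after Si-FIBP#1 was likewise -0.99 or -0.98. SAMHD1, which hydrolyses dNTPs, stayed at 12.1 to 17.3 FPKM and passed the test with neither siRNA.

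**Figure D1:**
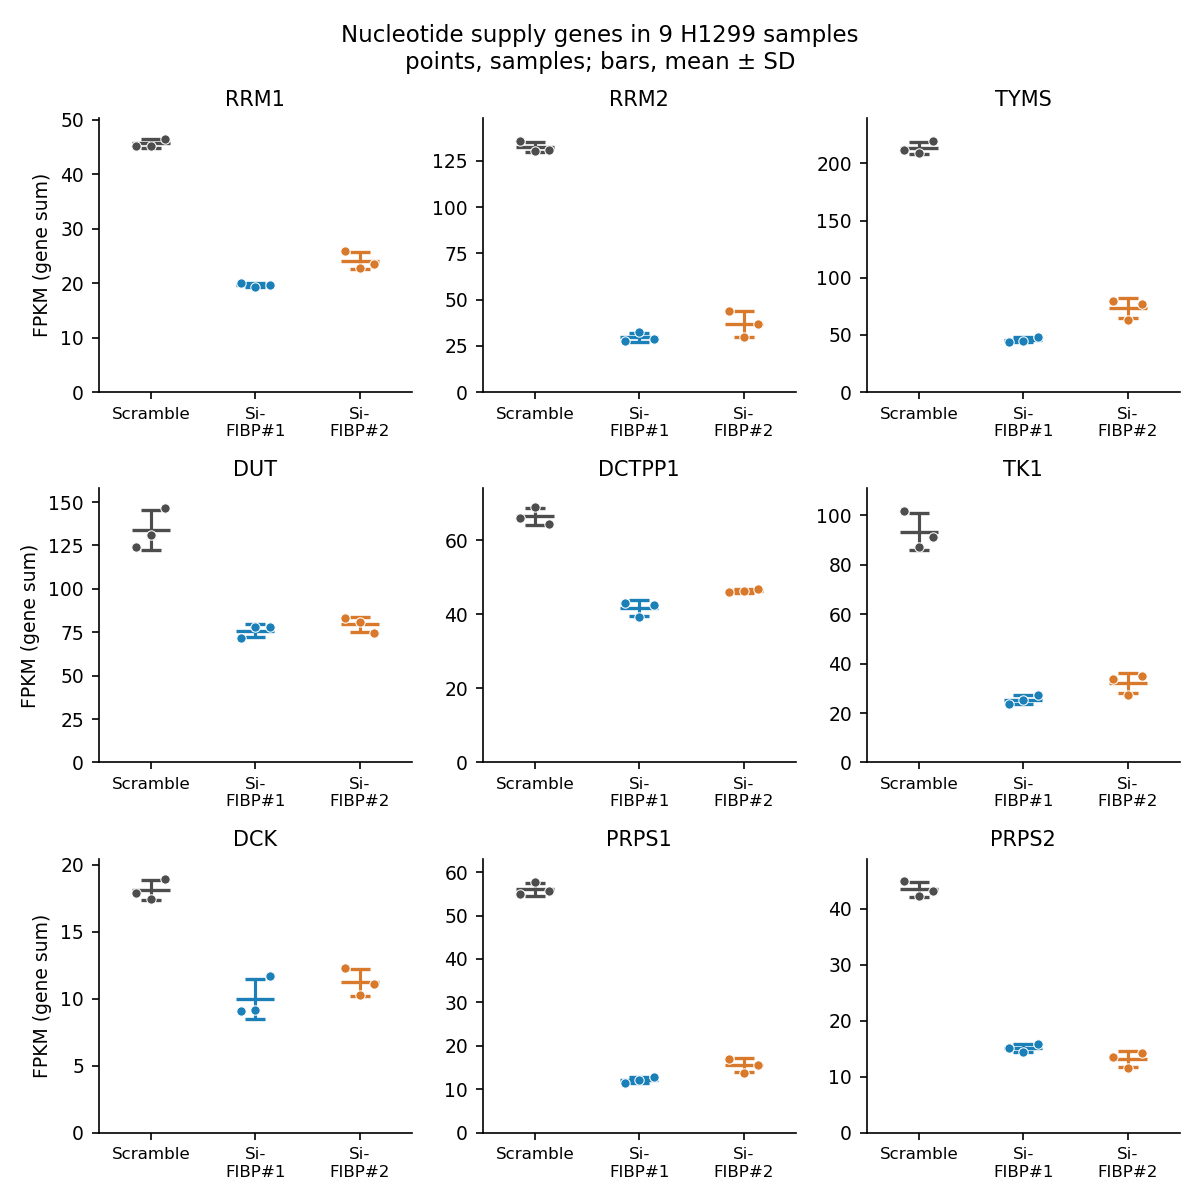
FPKM of the 9 nucleotide supply genes (vertical axes, from 0, a separate scale in each panel) in the Scramble, Si-FIBP#1 and Si-FIBP#2 groups, with 1 point per sample and bars for the mean ± SD of 3 samples. In each panel the 3 Scramble samples lie above all 6 FIBP-depleted samples.

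TYMS had the highest level of the 9 genes in Scramble cells, at 212, 209 and 219 FPKM. It was at 44.0, 44.95 and 48.1 FPKM after Si-FIBP#1 and at 79.55, 63.3 and 77.4 FPKM after Si-FIBP#2. The 3 groups did not overlap, and all Si-FIBP#2 samples lay between the other groups. The difference from Scramble was -2.20 ± 0.08 after Si-FIBP#1 and -1.53 ± 0.08 after Si-FIBP#2. TYMS showed the widest gap of the 9 genes between the 2 siRNAs, 0.67 higher after Si-FIBP#2 (95% interval 0.48 to 0.85). The genes were chosen with the values of both siRNA groups in view, so this interval is a description and no test.

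The 3′ end of TYMS (chr18:657604-673578, plus strand) overlaps ENOSF1, a mitochondrial sugar acid dehydratase gene on the minus strand, over 3255 bases (chr18:670324-673578). Whether reads were assigned by strand is not given in the sources used here, so reads from this stretch could belong to either gene. ENOSF1 was at 40.15 to 45.2 FPKM in Scramble cells, 29.3 to 35.3 FPKM after Si-FIBP#1 and 40.2 to 49.0 FPKM after Si-FIBP#2. Its difference was -0.40 ± 0.09 after Si-FIBP#1 (adjusted p = 0.00502) and 0.08 ± 0.09 after Si-FIBP#2 (adjusted p = 0.512), and the second turned to -0.07 after median ratio scaling.

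DUT removes dUTP and supplies dUMP, the substrate of TYMS. It was at 124, 131 and 147 FPKM in Scramble cells, 71.7, 78.15 and 78.1 FPKM after Si-FIBP#1 and 83.0, 81.1 and 74.8 FPKM after Si-FIBP#2, and the 2 siRNA groups overlapped. Its difference was -0.81 ± 0.07 and -0.74 ± 0.07, within the 2-fold threshold.

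The DUT gene has upstream starts and a downstream start, and the transcripts from the downstream start include ENST00000455976, which encodes the nuclear form of the enzyme, while ENST00000331200 from an upstream start encodes the mitochondrial form. This split was chosen after the transcript values were seen and carries no test. The 3 transcripts that start between chr15:48332103 and chr15:48332406 summed to 43.1, 45.5 and 50.1 FPKM in Scramble cells, 10.5, 10.8 and 11.8 FPKM after Si-FIBP#1 and 14.6, 13.4 and 14.7 FPKM after Si-FIBP#2. They were thus at 23.8% and 30.8% of their Scramble mean, close to the values of RRM2 and TYMS. The 6 transcripts that start between chr15:48331011 and chr15:48331473 summed to 80.95, 82.35 and 95.2 FPKM, to 59.6, 66.2 and 65.8 FPKM and to 68.0, 67.3 and 59.0 FPKM, which is 74.1% and 75.2% of the Scramble mean. The downstream start gave 34.5% ± 0.29 of the gene sum in Scramble cells, 14.5% ± 0.65 after Si-FIBP#1 and 17.9% ± 1.56 after Si-FIBP#2, with no overlap between the 3 groups. Both E2F motifs of DUT printed above lie at the downstream start, and the 3 windows at the upstream starts hold none of the 4 E2F letter runs. Of the upstream windows, those of the starts chr15:48331424 and chr15:48331429 are almost the same stretch. The STAT motif and the cell cycle homology regions of DUT also lie in the downstream window alone, and these matches are given as a description only. Transcript values of 1 gene share reads and depend on how the authors' tool divided them.

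DCTPP1, the pyrophosphatase that clears modified dCTP, had the smallest difference of the 9 genes. It was at 66.0, 69.05 and 64.55 FPKM in Scramble cells, 43.1, 39.3 and 42.7 FPKM after Si-FIBP#1 and 45.9, 46.4 and 47.0 FPKM after Si-FIBP#2. All 6 FIBP-depleted samples were below the Scramble samples, and its difference was -0.66 ± 0.05 and -0.51 ± 0.05. DTYMK, which phosphorylates dTMP in the next step towards dTTP, was called lower after Si-FIBP#1, at -1.08 ± 0.05 (adjusted p = 7.98e-07). With Si-FIBP#2 its difference was -0.74 ± 0.05 (adjusted p = 7.09e-06), within the 2-fold threshold.

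TK1, the cytosolic thymidine kinase of S phase cells, was at 102, 87.2 and 91.3 FPKM in Scramble cells. It was at 23.6, 25.2 and 27.4 FPKM after Si-FIBP#1 and at 33.9, 27.5 and 34.85 FPKM after Si-FIBP#2, and the 2 siRNA groups almost met, at 27.4 and 27.5 FPKM. The difference was -1.84 ± 0.10 and -1.52 ± 0.10. TK2, its mitochondrial counterpart, was at 9.57 to 10.2 FPKM in Scramble cells, 9.20 to 10.5 FPKM after Si-FIBP#1 and 10.8 to 14.4 FPKM after Si-FIBP#2. Its difference of 0.01 ± 0.10 after Si-FIBP#1 (adjusted p = 0.929) turned to -0.08 after median ratio scaling and -0.03 after TPM scaling, and that after Si-FIBP#2 was 0.31 ± 0.10 (adjusted p = 0.0274). After median ratio scaling the second was 0.17 and no longer passed (adjusted p = 0.18), nor did it pass without the filter on low values or without any 1 of Scramble replicates 2 and 3 and Si-FIBP#2 replicates 2 and 3. The ratio of TK1 to TK2 went from 9.53 ± 0.49 to 2.58 ± 0.37 and 2.61 ± 0.48.

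DCK, the cytosolic kinase of deoxycytidine, deoxyadenosine and deoxyguanosine, had the lowest level of the 9 genes. It was at 17.9, 17.5 and 18.95 FPKM in Scramble cells, 9.11, 9.15 and 11.7 FPKM after Si-FIBP#1 and 12.3, 10.3 and 11.1 FPKM after Si-FIBP#2. The siRNA groups overlapped below the Scramble samples, and the difference was -0.81 ± 0.10 and -0.65 ± 0.10. DGUOK, the mitochondrial kinase of purine deoxynucleosides, was above Scramble in all 6 FIBP-depleted samples, by 0.32 ± 0.10 (adjusted p = 0.0253) and 0.46 ± 0.10 (adjusted p = 0.00387). After median ratio scaling these values were 0.21 (adjusted p = 0.0908) and 0.31 (adjusted p = 0.0225).

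PRPS1 was at 54.9, 57.8 and 55.7 FPKM in Scramble cells, 11.4, 12.25 and 12.9 FPKM after Si-FIBP#1 and 17.1, 13.8 and 15.7 FPKM after Si-FIBP#2. Its 3 groups did not overlap, with the Si-FIBP#2 samples between the others, and the difference was -2.11 ± 0.08 and -1.79 ± 0.08. This was the 8th largest mean fall of all genes tested, next to RRM2, while TYMS held rank 13, TK1 rank 30 and PRPS2 rank 48. RRM1, DUT, DCK and DCTPP1 held ranks 342, 685, 786 and 1160.

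PRPS2, the second PRPP synthetase, was at 45.0, 42.3 and 43.3 FPKM in Scramble cells, 15.2, 14.4 and 15.8 FPKM after Si-FIBP#1 and 13.5, 11.5 and 14.3 FPKM after Si-FIBP#2. It was the only one of the 9 genes whose mean was lower after Si-FIBP#2 than after Si-FIBP#1, at -1.47 ± 0.08 after Si-FIBP#1 and -1.66 ± 0.08 after Si-FIBP#2. The ratio of PRPS1 to PRPS2 was 1.29 ± 0.07 in Scramble cells, 0.808 ± 0.05 after Si-FIBP#1 and 1.19 ± 0.09 after Si-FIBP#2. The ratios of Scramble and Si-FIBP#2 overlapped, and those of Si-FIBP#1 lay below both.

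The testis gene PRPS1L1 was listed at 0 in all 9 samples. PRPSAP1 and PRPSAP2 encode proteins that bind PRPP synthetase and restrain it. PRPSAP2 was at 42.1, 45.9 and 45.7 FPKM in Scramble cells, 47.5, 48.05 and 55.4 FPKM after Si-FIBP#1 and 19.2, 19.3 and 18.6 FPKM after Si-FIBP#2. It was called lower after Si-FIBP#2, at -1.18 ± 0.07 (adjusted p = 2.14e-06), and differed by 0.17 ± 0.07 after Si-FIBP#1 (adjusted p = 0.0695), and the difference between the siRNAs, -1.35 ± 0.07, was also called (adjusted p = 2.46e-05). PRPSAP1 was at -0.26 ± 0.10 after Si-FIBP#1 (adjusted p = 0.0446) and 0.15 ± 0.10 after Si-FIBP#2 (adjusted p = 0.234), within the 2-fold threshold. After median ratio scaling these values were -0.36 (adjusted p = 0.0132) and 0.00085 (adjusted p = 0.995). RPIA, which makes the ribose 5-phosphate that PRPP synthetase uses, was at 17.7 to 18.7 FPKM in Scramble cells, 12.8 to 14.35 FPKM after Si-FIBP#1 and 5.55 to 8.84 FPKM after Si-FIBP#2. It was called lower after Si-FIBP#2, at -1.35 ± 0.14 (adjusted p = 5.21e-05), and was at -0.38 ± 0.14 after Si-FIBP#1 (adjusted p = 0.0456). The difference between the siRNAs was -0.96 ± 0.14 (adjusted p = 0.00247), just within the 2-fold threshold, and it was called at -1.004 after median ratio scaling, -1.06 for a pseudocount of 0.1, -1.01 without Si-FIBP#1 replicate 1 and -1.15 without Si-FIBP#2 replicate 2.

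**Figure D2:**
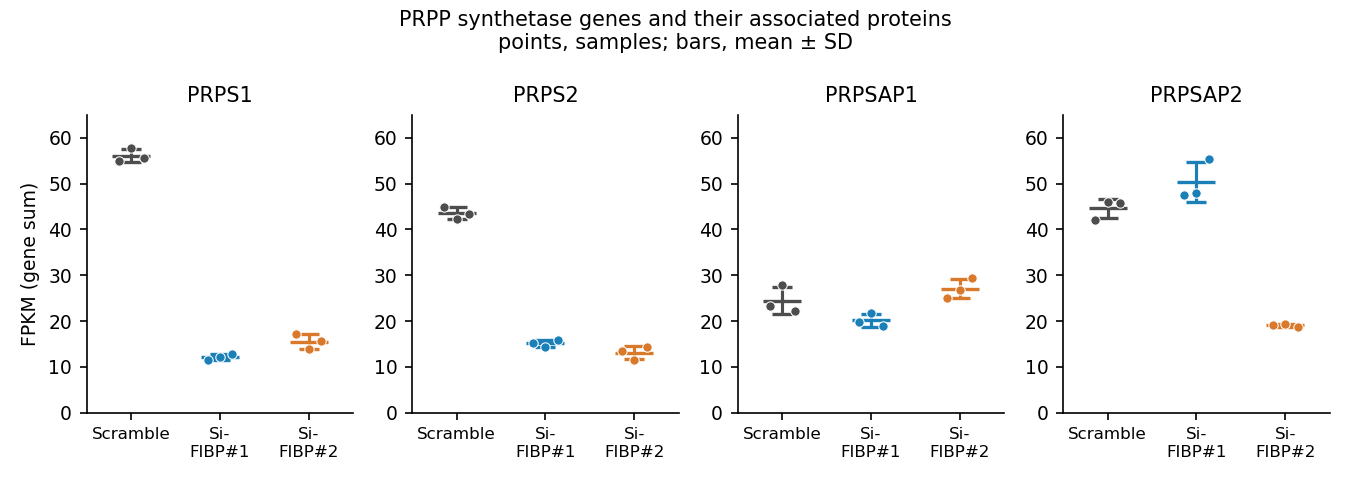
FPKM (vertical axes, from 0, the same scale in each panel) of PRPS1, PRPS2, PRPSAP1 and PRPSAP2 in the Scramble, Si-FIBP#1 and Si-FIBP#2 groups, with points for samples and bars for the mean ± SD of 3 samples. PRPS1 and PRPS2 reach at most 17.1 FPKM in the 6 FIBP-depleted samples, and PRPSAP2 reaches at most 19.3 FPKM after Si-FIBP#2.

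By the call rule, 6 of the 9 genes were lower after Si-FIBP#1, namely RRM1, RRM2, TYMS, TK1, PRPS1 and PRPS2, where 3.11% of all tested genes were called lower. With Si-FIBP#2, 5 of 9 were lower, all of these but RRM1, beside 2.13% of all tested genes. With both siRNAs in 1 contrast the count was 6 of 9, beside 2.45%. At an FDR below 0.05 alone, 9 of 9 were lower with each siRNA, beside 19.9% and 17.7% of all tested genes. All 9 had each FIBP-depleted sample below each Scramble sample, beside 16.5% of all tested genes. Because the genes were selected on these contrasts, nothing is read from these counts. After median ratio scaling RRM1 was also past 2-fold after Si-FIBP#2, at -1.04.

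Between the 2 siRNAs, 0 of the 9 genes were called, beside 0.561% of all tested genes. At an FDR below 0.05 alone, RRM1, TYMS and PRPS1 were higher after Si-FIBP#2, beside 9.58% of all tested genes. The genes were chosen with the values of both siRNA groups in view, so nothing is read from these counts either. The intervals of these genes given below are likewise a description, not adjusted for the number of genes. The gap was 0.28 (95% interval 0.15 to 0.41) for RRM1 and 0.32 (0.14 to 0.50) for PRPS1. RRM2 had a similar estimate with a wider interval, 0.29 (0.02 to 0.55), and DUT differed least, by 0.07 (-0.09 to 0.23). Residual FIBP differed between the siRNAs by 0.13 (-0.28 to 0.54).

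**Figure D3:**
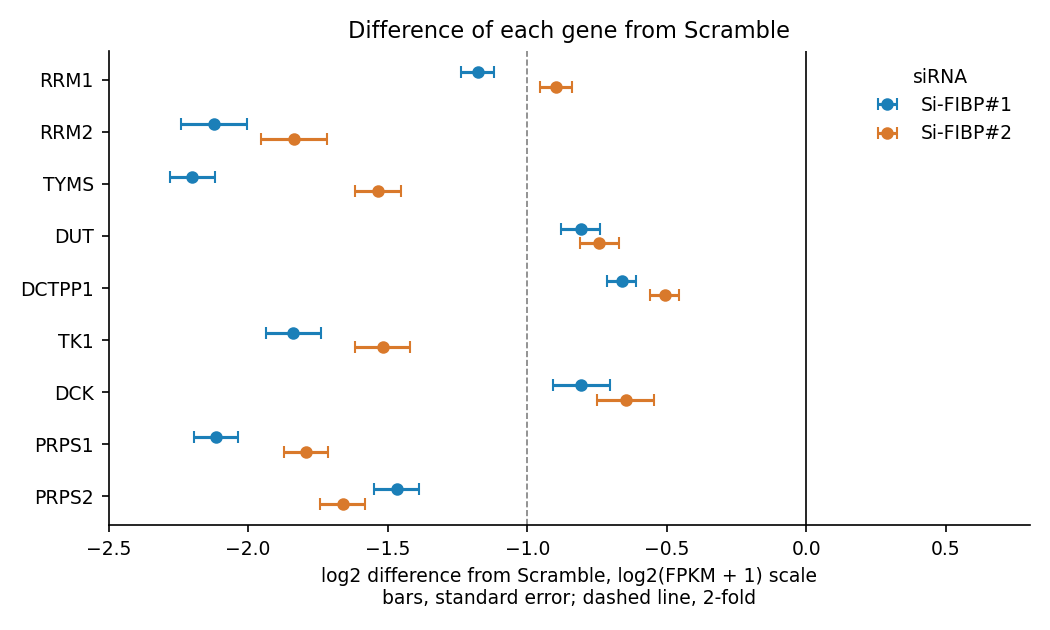
Difference from Scramble of each nucleotide supply gene (horizontal axis, log2 scale of FPKM + 1) after Si-FIBP#1 and Si-FIBP#2, with bars for the standard error from limma and a dashed line at 2-fold. RRM2, TYMS, TK1, PRPS1 and PRPS2 lie beyond the 2-fold line with both siRNAs, RRM1 after Si-FIBP#1, and DUT, DCTPP1 and DCK with neither.

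FPKM are scaled to transcript length, so gene sums can also be ranked between genes. These sums include short and non-coding transcripts, and the order holds for the sums only. In Scramble cells the full-length RRM2 transcripts alone summed to 94.0 FPKM, and the leading TK1 transcript alone was at 79.4 FPKM. In Scramble cells TYMS (213 ± 5.28 FPKM) was followed by DUT (134 ± 11.4), RRM2 (132 ± 2.84), TK1 (93.4 ± 7.44), DCTPP1 (66.5 ± 2.30), PRPS1 (56.1 ± 1.495), RRM1 (45.6 ± 0.77), PRPS2 (43.5 ± 1.34) and DCK (18.1 ± 0.76). Of these neighbours, DUT and RRM2 overlapped and the others did not. With Si-FIBP#1 the order was DUT (76.0 ± 3.74 FPKM), TYMS (45.7 ± 2.14), DCTPP1 (41.7 ± 2.07), RRM2 (29.7 ± 2.34), TK1 (25.4 ± 1.90), RRM1 (19.6 ± 0.38), PRPS2 (15.1 ± 0.72), PRPS1 (12.2 ± 0.73) and DCK (9.98 ± 1.47), with PRPS1 and DCK overlapping. With Si-FIBP#2 it was DUT (79.6 ± 4.29 FPKM), TYMS (73.4 ± 8.83), DCTPP1 (46.5 ± 0.54), RRM2 (36.85 ± 7.13), TK1 (32.1 ± 4.01), RRM1 (24.1 ± 1.57), PRPS1 (15.5 ± 1.63), PRPS2 (13.1 ± 1.46) and DCK (11.2 ± 1.02). There the pairs DUT and TYMS, RRM2 and TK1, PRPS1 and PRPS2, and PRPS2 and DCK overlapped.

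At the level of transcripts, RRM1, DCTPP1 and TK1 were each carried by 1 leading transcript. ENST00000300738 held 94.4% of the RRM1 sum over all samples, ENST00000319285 97.0% of DCTPP1 and ENST00000301634 84.7% of TK1. These transcripts were at 42.6% and 51.4%, 60.6% and 67.5%, and 25.3% and 35.7% of their Scramble means after Si-FIBP#1 and Si-FIBP#2. TYMS was led by ENST00000323274, at 179 ± 3.73 FPKM in Scramble cells and 35.4 ± 1.42 and 55.6 ± 3.38 FPKM in the FIBP-depleted groups, and ENST00000581920, annotated as a processed transcript, took 16.6% of the sum.

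RRM2 had 2 full-length transcripts, ENST00000304567 and ENST00000652660, whose deposited lengths differ by 13 nt. Values swung between them within a group, with ENST00000304567 at 52.3, 64.7 and 27.3 FPKM in the Scramble samples where ENST00000652660 was at 38.3, 28.05 and 71.3 FPKM. In the 6 FIBP-depleted samples ENST00000304567 was at 0 to 7.64 FPKM, or 9.33% and 1.72% of its Scramble mean, and ENST00000652660 at 14.1 to 24.25 FPKM, or 38.8% and 49.3%. Their sum was steadier, at 90.7, 92.8 and 98.6 FPKM in Scramble cells, 20.8, 21.7 and 24.4 FPKM after Si-FIBP#1 and 26.7, 19.8 and 23.9 FPKM after Si-FIBP#2, or 23.7% and 24.9% of Scramble. The retained intron transcript ENST00000491447 was at 20.1 ± 2.15 FPKM in Scramble cells and at 2.32 ± 2.05 and 5.86 ± 4.12 FPKM in the FIBP-depleted groups.

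For PRPS1, ENST00000372435 was at 18.7% and 23.3% of its Scramble mean and the shorter ENST00000372418 at 26.6% and 30.1%. For PRPS2, ENST00000380668 was at 33.8% and 29.1% and ENST00000380663 at 33.9% and 33.1%. For DCK, ENST00000286648 was at 52.2% and 63.5% and ENST00000503359, annotated as a target of nonsense-mediated decay, at 58.9% and 55.6%. Among the DUT transcripts, ENST00000455976 was at 22.6% and 29.3%, ENST00000331200 at 86.0% and 79.7%, ENST00000558813 at 74.1% and 75.5% and ENST00000559416 at 57.3% and 53.9%. The share of the leading transcript in its gene sum was compared between all 6 FIBP-depleted and all 3 Scramble samples with a two-sided exact permutation test, whose smallest possible p is 0.0238. After adjustment over the 9 genes by the Benjamini-Hochberg method, 0 of 9 shares passed (smallest adjusted p = 0.143), a result that this design could hardly have avoided, since several genes at the smallest possible p are needed for any to pass. Unadjusted, RRM2 (34.7% in Scramble against 61.5% in FIBP-depleted cells, exact p = 0.0476), TYMS (83.7% against 76.8%, exact p = 0.0476) and DUT (34.3% against 44.2%, exact p = 0.0238) were below 0.05. No change of share is read from these unadjusted values, and the test treated the samples of both siRNAs as alike. The RRM2 share ran from 21.5% to 54.5% within the Scramble group and depends on how reads were divided between its full-length transcripts. The leading share of DUT, that of the upstream transcript ENST00000558813, went from 34.3% ± 0.27 to 44.8% ± 6.18 and 43.6% ± 5.39.

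In the wider nucleotide pathways, genes changed in both directions, with more lower than higher. Of 76 other tested genes of nucleotide metabolism, 7 were called lower and 1 higher after Si-FIBP#1, and 6 lower and 1 higher after Si-FIBP#2. Of all tested genes, 3.11% and 2.13% were called lower and 2.55% and 2.92% higher. At an FDR below 0.05 alone, 37 of the 76 were lower and 17 higher after Si-FIBP#1, where 19.9% of all tested genes were lower and 27.8% higher. After Si-FIBP#2, 33 were lower and 18 higher, where 17.7% of all were lower and 31.1% higher. Their median difference was -0.16 and -0.12, against 0.073 and 0.11 for all tested genes. The lists were drawn up with earlier results of these data known.

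De novo purine synthesis, which starts from PRPP, had 15 tested genes with 2 called lower and 1 higher with each siRNA. PFAS, the enzyme of its 4th step, fell from 27.8 ± 4.15 FPKM to 9.90 ± 2.58 and 9.87 ± 1.37 FPKM, a difference of -1.42 ± 0.18 (adjusted p = 0.000186) and -1.40 ± 0.18 (adjusted p = 0.000205). PPAT, which commits PRPP to this pathway, stayed at 14.4 to 19.0 FPKM in all 9 samples and passed the test with neither siRNA. ADSS1, the muscle type adenylosuccinate synthase, rose from 19.5 ± 1.59 FPKM to 57.5 ± 0.83 and 43.3 ± 3.14 FPKM, by 1.51 ± 0.07 (adjusted p = 7.08e-07) and 1.11 ± 0.07 (adjusted p = 3.83e-06), and after median ratio scaling the second was 0.97. NME2, a nucleoside diphosphate kinase, was called lower at -1.03 ± 0.09 (adjusted p = 1.79e-05) and -1.81 ± 0.09 (adjusted p = 1.07e-06), but it shares sequence with its neighbour NME1, so its value is uncertain. Without Si-FIBP#1 replicate 3 the first was -0.97 and no longer called.

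In de novo pyrimidine synthesis, 0 of 5 genes were called by limma with either siRNA. At an FDR below 0.05 alone 2 of 5 were lower after Si-FIBP#1 and 3 of 5 after Si-FIBP#2, among them CAD, which catalyses its first steps, at -0.35 ± 0.09 (adjusted p = 0.00832) and -0.31 ± 0.09 (adjusted p = 0.0134). Ribonucleotide salvage also had 0 of 8 genes called, with 5 and 3 of 8 lower and 2 and 2 higher at an FDR below 0.05 alone. HPRT1, which joins purine bases to PRPP, was at -0.53 ± 0.08 (adjusted p = 0.000399) and -0.58 ± 0.08 (adjusted p = 0.00023), while its counterpart APRT was at 0.24 ± 0.04 (adjusted p = 0.000887) and 0.30 ± 0.04 (adjusted p = 0.000232).

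Of the 13 folate genes, 2 were called lower after Si-FIBP#1, among them MTHFD2, and 1 after Si-FIBP#2. MTHFD2, a mitochondrial folate enzyme, was at -1.01 ± 0.06 (adjusted p = 2.59e-06) and -0.65 ± 0.06 (adjusted p = 3.99e-05). The first of these lay so near the threshold that leaving out Scramble replicate 2 or 3 (-0.995 each) or Si-FIBP#1 replicate 2 (-0.99) ended the call. Outside the 2 members, the nucleotide pool sanitation genes had 12 tested, of which NT5M, a mitochondrial nucleotidase, was called lower after Si-FIBP#1 at -1.07 ± 0.16 (adjusted p = 0.00045) and 0 after Si-FIBP#2. The NT5M call was lost without Scramble replicate 3 (-0.95) and with Ensembl transcripts only (-0.85), and the latter setting also ended the Si-FIBP#1 calls of MTHFD2 (-0.999) and TXNRD1 (-0.995).

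**Figure D4:**
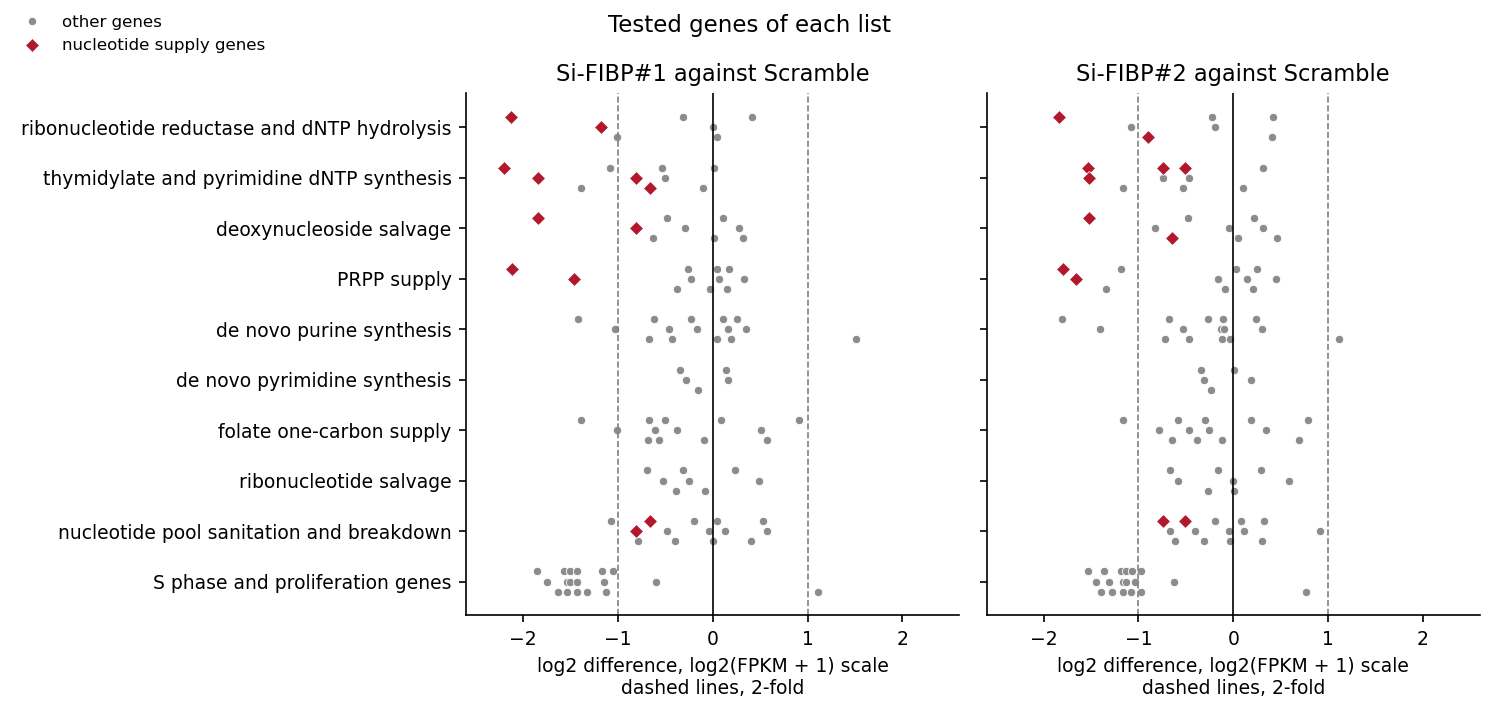
Difference from Scramble (horizontal axes, log2 scale of FPKM + 1) of every tested gene in 10 lists after Si-FIBP#1 (left) and Si-FIBP#2 (right), with the nucleotide supply genes as red diamonds, the other genes as grey points, and dashed lines at 2-fold. The red diamonds, which were chosen partly on these values, lie left of 0, as do 17 of the 18 genes of S phase and proliferation. Genes of de novo purine synthesis, de novo pyrimidine synthesis and ribonucleotide salvage lie on both sides of 0. Of the 6 other tested genes of thymidylate and pyrimidine deoxynucleotide synthesis, 4 were lower with each siRNA at an FDR below 0.05 alone, and 0 and 1 were higher.

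Genes of S phase and proliferation were mostly lower too. Of 18 tested, 16 were called lower and 1 higher after Si-FIBP#1, and 14 lower and 0 higher after Si-FIBP#2, with medians of -1.44 and -1.15. The medians of the 9 nucleotide supply genes were -1.47 and -1.52. CDC45, MCM7 and MCM5 of the replicative helicase had the largest falls of the list in the mean over both siRNAs. CDC45 was at -1.86 ± 0.09 (adjusted p = 8.25e-07) and -1.53 ± 0.09 (adjusted p = 2.63e-06), MCM7 at -1.75 ± 0.04 (adjusted p = 6.58e-08) and -1.28 ± 0.04 (adjusted p = 2.49e-07), and MCM5 at -1.54 ± 0.07 (adjusted p = 6.96e-07) and -1.45 ± 0.07 (adjusted p = 1.14e-06). The exception was CCNE1, the cyclin of the G1 to S transition, which was above Scramble in all 6 FIBP-depleted samples, at 1.11 ± 0.13 (adjusted p = 9.94e-05, called) and 0.77 ± 0.13 (adjusted p = 0.000896, within 2-fold). These are bulk samples, in which fewer cells in S phase and less RNA per cell cannot be told apart. The part of S phase cell number in the lower nucleotide supply mRNAs was not tested.

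The genes outside the 9 whose profile over the 9 samples was most like that of RRM2 were CHPT1, UHRF1 and SPAG5, by the root mean square difference in log2(FPKM + 1) after each gene was set to its Scramble mean (0.131, 0.162 and 0.174). For TYMS they were SPAG5, CHPT1 and MT2A (0.0959, 0.116 and 0.131), and for PRPS1 they were CHPT1, SPAG5 and KIF20A (0.109, 0.134 and 0.142). PRPS1 and RRM2 were nearer to each other (0.0908) than to any of these, but both were chosen with their large falls known. TYMS was nearer to SPAG5, CHPT1 and MT2A than to PRPS1 (0.163) or RRM2 (0.200). CHPT1 makes phosphatidylcholine, UHRF1 maintains DNA methylation, SPAG5 and KIF20A act in mitosis, and MT2A is a metallothionein. CHPT1 was at 34.4 to 37.0 FPKM in Scramble cells, 6.22 to 8.24 FPKM after Si-FIBP#1 and 9.34 to 11.9 FPKM after Si-FIBP#2.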

How the data were processed

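Total RNA of 9 H1299 samples was poly(A)-selected and sequenced from both ends. The authors deposited 1 table of transcript FPKM per sample. The tables list Ensembl transcripts as well as newly assembled ones, which took 5.45% to 5.84% of the total. That the values are FPKM was judged from their range and sums. The submitters' processing notes name HISAT2 and StringTie; versions, genome build and annotation are not given in the sources used here. No counts were used, so no counting interval is given, and precision rests on the spread between samples. At a depth of 20200000 to 24100000 fragments all 9 genes were well above the filter.

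FPKM were summed per gene identifier. Genes that reached 1 FPKM in 3 or more samples were fitted over all 3 groups with limma 3.58.1 (R 4.3.3; empirical Bayes with a mean-variance trend) on log2(FPKM + 1), with Benjamini-Hochberg adjustment and calls at a fold over 2 and an FDR below 0.05. These differences understate those of low genes. Leading transcript shares were compared by exact permutation (scipy 1.17.1). The depth estimate and the fit were tested on simulated data. Coordinates come from GENCODE release 29 (GRCh38) and promoter windows from RefSeq (GRCh38.p14), matched by identifier or symbol; the authors' transcript models may differ.

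The members and the gene lists were chosen with earlier results of these data known. The genes named were FIBP, the 9 members with transcripts of at least 10% of the sum, their partners and paralogs, up to 3 called genes with the largest mean rise and fall per list, marker genes, and the 3 nearest profiles of RRM2, TYMS and PRPS1. SAMHD1, DTYMK, PPAT, CAD, HPRT1 and APRT were named after their values were seen. A few genes that this rule names are not reported here. The alternatives were a pseudocount of 0.1, no filter or 5 FPKM, median ratio or TPM scaling, a fit of the compared groups only, a replicate block, no fold threshold, Ensembl transcripts only, and leaving out each sample.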

Additional observations from a re-analysis of the deposited data

Results flagged for a closer look

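PRPSAP2 moved differently with the 2 siRNAs. Its difference from Scramble was 0.17 ± 0.07 after Si-FIBP#1 and -1.18 ± 0.07 after Si-FIBP#2 (log2, SE, n = 3 samples in each group), and the difference between the siRNAs, tested in limma itself, was -1.35 ± 0.07 (adjusted p = 2.46e-05). All 3 Si-FIBP#2 samples, at 18.6 to 19.3 FPKM, lay below the 3 Si-FIBP#1 samples, at 47.5 to 55.4 FPKM. The cause was not tested.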

How the results depend on the processing

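The difference of each of the 9 genes from Scramble kept its direction under each alternative run, which is no independent support since the genes were chosen on these contrasts. A pseudocount of 0.1 gave 1498, 1411 and 1418 called genes for Si-FIBP#1, Si-FIBP#2 and both, and 172 between the siRNAs, against 848, 757, 721 and 84. With that pseudocount 849 genes were higher and 649 lower after Si-FIBP#1, against 382 and 466 in the main fit. After Si-FIBP#2 they were 953 and 458, against 438 and 319. Without a fold threshold the counts were 7146, 7309, 7938 and 2304, and of the 9 genes 9 were called for Si-FIBP#2 and 3 between the siRNAs. Leaving out 1 sample gave 840 to 882, 734 to 836, 691 to 756 and 73 to 128 called genes, the highest of the last without Si-FIBP#2 replicate 2, and 6, 5, 6 and 0 of the 9 genes.

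Some small differences changed sign. Between the siRNAs, median ratio scaling gave -0.024 for PFAS and -0.039 for RRM2B. Leaving out 1 sample gave -0.195 to 0.14 for PFAS, -0.092 to 0.068 for RRM2B, -0.10 to 0.26 for FIBP and -0.12 to 0.029 for TXNRD1. Against Scramble, ENOSF1 was -0.071 for Si-FIBP#2 after median ratio scaling. TK2 for Si-FIBP#1 was -0.080 after median ratio scaling, -0.030 after TPM scaling and -0.028 to 0.060 without 1 sample. PRPSAP1 over both siRNAs was -0.12 to 0.035 without 1 sample. The DCK leading transcript share was 1.46 percentage points above Scramble for Si-FIBP#2 alone and differed by -2.85 to 0.124 without 1 sample. The TK1 leading transcript share was 3.53 points above it and differed by -2.84 to 0.699. The cause of these changes was not tested.

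Deviations of same-numbered samples had correlations from -0.057 to 0.103, and those of differently numbered samples from -0.142 to 0.049. The highest values were of same-numbered samples, but not all of these deviated together. Whether the replicate numbers pair the samples is not settled by these values, and the main fit used no pairing. Under a replicate block the counts were 853, 760, 725 and 88. Depth limits genes near 1 FPKM, and PRPS1L1, CMPK2, SLC28A3, CDA and XDH were not tested.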
